A study of Mus musculus with 6 samples.

Results

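The Hedgehog pathway was described through 9 genes in bulk RNA-seq of mouse primary myoblasts, the cultured progenitors of muscle fibres. These genes were Cdon, Boc, Ptch1, Smo, Hhip, Sufu, Gli1, Gli2 and Gli3, taken by their symbols from the 54532 genes of the count and FPKM tables, and all 9 were among the 14679 genes that passed the expression filter of edgeR. There were 3 libraries labelled WT and 3 labelled eIF5A-KO, all from day 2 of culture in DMEM with serum and FGF, from hind-limb muscle of 3-week-old mice, an age that the series' design text calls adult. The floxed eIF5A mice had a C57BL/6j background. The study describes the knockout mice as Pax7 CreERT2/+; eIF5A f/f, in which tamoxifen activates a recombinase made from the Pax7 gene, so that the deletion is limited to Pax7-expressing satellite cells and their descendants. The WT mice were littermates, and the study gives the control genotype in one place as Pax7 CreERT2/+ and in another as Pax7 +/+; eIF5A f/f. By the series' design text, cells were freed with dispase and collagenase, strained and put in culture medium, with no sorting step named there. Nothing in the labels says that the libraries of a group came from separate animals, so that p-values measure the spread between these libraries, which may be technical.

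Hedgehog ligands are secreted proteins that bind the membrane protein PTCH1. Without ligand, PTCH1 holds the membrane protein SMO inactive, SUFU restrains the GLI transcription factors, and GLI3 in particular is processed into a repressor; with ligand, SMO is released and GLI2 and GLI3 act as activators. CDON and BOC are related cell-surface proteins of the immunoglobulin superfamily that serve as Hedgehog co-receptors, and they were also described as promoters of myogenic differentiation at contacts between myoblasts. Gli1, Ptch1 and Hhip are themselves transcribed in response to the pathway in many tissues, and their transcripts are commonly read as its output, HHIP and PTCH1 being feedback inhibitors that bind the ligand. The translation factor eIF5A carries the modified lysine hypusine and helps the ribosome through stretches that are slow to translate, consecutive prolines among them. Counts of RNA do not measure translation.

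The sequences of interest are the start regions of Cdon and Hhip, the genes whose groups did not overlap, and the proline codon runs of the pathway's coding sequences. Start regions, 250 bases before to 50 after the annotated start, came from RefSeq on GRCm38.p6. Of the 9 genes, 7 matched that table, and Gli1 and Boc did not. The window of Cdon at chr9:35451826-35452125, on the plus strand, held 3 CpG dinucleotides and 44.7% G and C. It lies inside the gene as the count table gives it, since that gene begins upstream at 35421128. The window of Hhip at chr8:80057959-80058258, on the minus strand, held 30 CpG dinucleotides and 73.7% G and C, while the median over all windows of the table was 7 CpG dinucleotides. Both are shown 5′ to 3′ on the gene's strand, and capitals mark CCACCC, the core of the sequence that GLI proteins bind.
Cdon: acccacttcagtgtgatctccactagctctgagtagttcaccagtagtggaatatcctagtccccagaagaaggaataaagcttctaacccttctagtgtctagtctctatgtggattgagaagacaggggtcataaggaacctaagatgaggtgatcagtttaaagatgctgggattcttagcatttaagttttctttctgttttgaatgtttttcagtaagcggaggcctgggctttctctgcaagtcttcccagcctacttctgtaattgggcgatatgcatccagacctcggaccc
Hhip: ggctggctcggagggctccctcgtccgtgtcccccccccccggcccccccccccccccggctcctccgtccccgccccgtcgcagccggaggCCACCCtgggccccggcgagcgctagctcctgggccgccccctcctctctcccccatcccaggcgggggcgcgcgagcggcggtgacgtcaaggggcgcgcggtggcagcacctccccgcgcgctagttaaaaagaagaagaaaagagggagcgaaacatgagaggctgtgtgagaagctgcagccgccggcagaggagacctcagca
The 9-base GLI motif GACCACCCA, which contains that core, was in none of the 7 windows on either strand, and 83 of 32851 windows (0.253%) held it. The core CCACCC, read on both strands, was present in the windows of Gli2 (2 matches), Gli3, Hhip and Smo (1 match each) and in 31.5% of all windows. The windows of Cdon, Ptch1 and Sufu did not hold these letters. The window of Ptch1, at chr13:63565686-63565985 on the minus strand, lies inside the gene too, which begins upstream at 63573598. So does that of Gli3, at chr13:15463473-15463772 on the plus strand, whose gene begins upstream at 15463235. The starts of these genes in the count table were not read. CAGCTG, a form of the E-box CANNTG that MYOD1 and related factors bind, was in none of the 7 windows and in 16.3% of all windows. The general form CANNTG was present once in the windows of Gli3 and Sufu, and in 72.3% of all windows. A match is a description of the letters and not evidence of binding.

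Runs of at least 3 consecutive proline codons were counted in the longest complete coding sequence of each gene in GENCODE M21. Boc had 5 runs, Ptch1 had 4, Gli1, Gli2 and Gli3 had 2 each and Smo had 1, while Cdon, Hhip and Sufu had 0. Such runs were present in 4301 of 21492 genes (20.0%). The longest run of each of the 4 genes with a run longer than 3 codons is shown with its flanking codons, the proline codons in capitals, starting at codon 69 of Gli1, 650 of Gli3, 627 of Ptch1 and 60 of Smo.
Gli1: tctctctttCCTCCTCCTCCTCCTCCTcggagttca
Gli3: caccctcggCCTCCACCCCCGagagattcc
Ptch1: cggtacagcCCCCCACCCCCAtacaccagc
Smo: gtgaccagcCCTCCGCCGCCGctgctgagc
Neither of the genes whose groups did not overlap, Cdon and Hhip, carried such a run.

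Total counts were 16281216 to 17734551 per library, and the biological coefficient of variation over all tested genes was 0.239. WT replicate 1 had 5.75% of its counts on mitochondrial transcripts, against 2.11% to 3.50% in the other 5 libraries. Eif5a, the gene named in the knockout (ENSMUSG00000078812, chromosome 11, 69916714 to 69921958, minus strand), did not differ between the groups by more than their spread. It was at 1603, 986 and 1238 CPM (counts scaled to the size of each library with TMM factors) in WT and 1364, 1459 and 1059 CPM in the libraries labelled eIF5A-KO, with a log2 fold change of 0.02 (95% confidence interval -0.51 to 0.55; adjusted p = 0.993 in edgeR). Which exons were deleted is not given in the sources used here, so that this row does not by itself check the genotype, and groups are named here by their labels. The study judged the knockout successful by RT-PCR and by eIF5A staining in satellite cells, which are other samples than these libraries. Markers of myogenic cells were present in every library, with summed levels of 608 to 1420 CPM in WT and 461 to 955 CPM in the libraries labelled eIF5A-KO. Markers of other cells of muscle were present too, and none of the listed markers was at 0 in all libraries: the summed level was 2308 to 3455 CPM for fibro-adipogenic progenitors, 1253 to 3222 CPM for endothelial cells, 371 to 785 CPM for mural cells, 212 to 368 CPM for Schwann cells, 264 to 352 CPM for tenocytes and 59.7 to 160 CPM for macrophages and leukocytes over both groups. The levels of the Hedgehog genes are therefore levels of mixed cultures, in which fewer cells of a type and less RNA per cell cannot be told apart.

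Per length of transcript, the pathway was present at moderate to low levels. By mean FPKM over the 6 libraries (fragments per kilobase of gene length, as scaled by the authors), Smo stood highest at 14.2, above 73.7% of the tested genes. Cdon followed at 9.74, Boc at 6.65 and Sufu at 5.38, Sufu lying above 51.1% of tested genes. Gli3 was at 2.13 and Ptch1 at 1.45, and Gli2 was at 0.746. Hhip at 0.381 and Gli1 at 0.346 were the lowest and lay above 8.13% and 7.37% of tested genes. Within the groups, Cdon was at 13.7 in WT and 5.74 in the libraries labelled eIF5A-KO, below Boc at 6.95 in the latter. By its mean, Hhip was below Gli1 in WT, at 0.244 against 0.387, and above it in the other group, at 0.519 against 0.306. In WT replicate 1 Hhip stood above Gli1, at 0.407 against 0.255. Neighbours in the order over all libraries overlapped in their ranges except for Sufu and Gli3. By their means, Smo, both co-receptor genes and Sufu thus stood above the 3 GLI genes and above Ptch1 and Hhip, the targets.

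**Figure D1:**
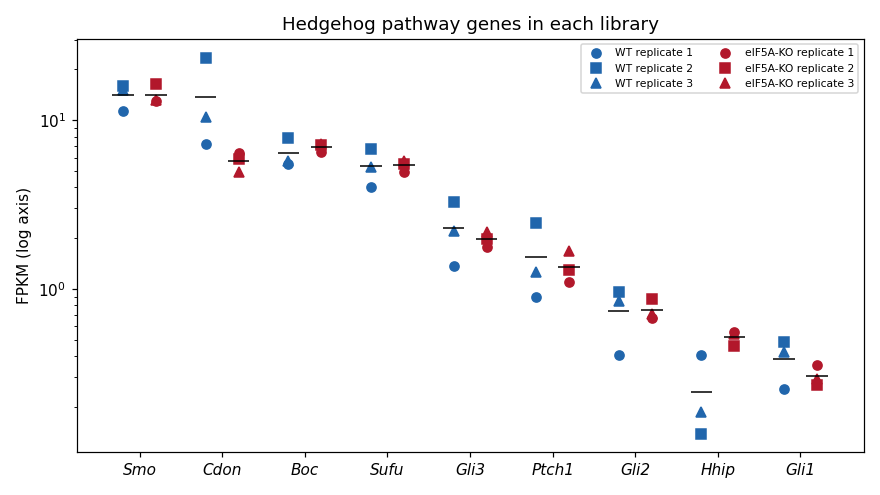
Level of each of the 9 genes in each library, as FPKM on a log axis, ordered by mean level, with the 3 WT libraries in blue, the 3 libraries labelled eIF5A-KO in red, a symbol for each replicate and black bars at the group means. The groups are apart for Cdon, with lower eIF5A-KO libraries, and for Hhip, with higher ones, and they overlap for the other 7 genes.

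No gene of the 9 passed the adjusted threshold between the groups, at which edgeR called 3 of all tested genes (0.0204%). At an unadjusted p under 0.05 there were 2 of 9, Hhip higher and Cdon lower, beside 6.76% of all tested genes (2.74% higher and 4.02% lower in eIF5A-KO). The same 2 genes were the ones whose groups did not overlap, beside 12.5% of all tested genes (5.68% higher and 6.83% lower). By sign, 4 of the 9 had a log2 fold change above 0 and 5 below 0 (5 to 7 below 0 under the other scalings), beside 48.3% and 51.7% of all tested genes, and the median of the 9 was -0.011, as was that of all tested genes.

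**Figure D2:**
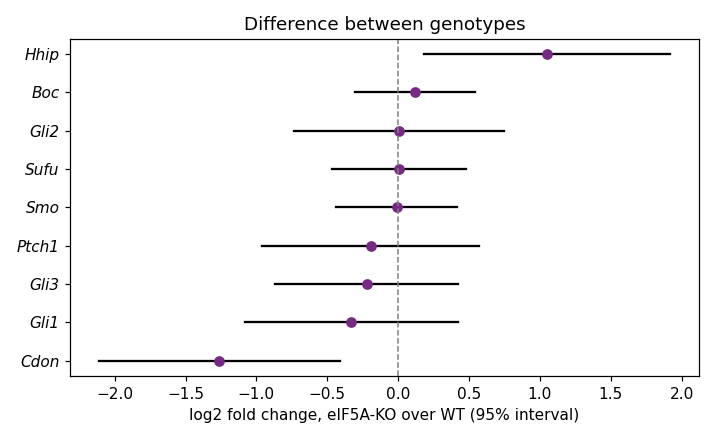
Log2 fold change of each gene between libraries labelled eIF5A-KO and WT, with its 95% confidence interval from edgeR. The intervals of Cdon (-2.11 to -0.41) and Hhip (0.18 to 1.92) lie off 0 before adjustment, and the other 7 include 0.

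Cdon (ENSMUSG00000038119), which encodes the co-receptor CDON, is annotated on chromosome 9, 35421128 to 35507652, plus strand. It was counted 876, 3455 and 1377 times in WT replicates 1 to 3 and 816, 769 and 677 times in the libraries labelled eIF5A-KO. Scaled, its level was 56.6, 183 and 81.3 CPM in WT and 49.9, 45.5 and 38.4 CPM in the libraries labelled eIF5A-KO. All 3 WT libraries lay above all 3 labelled eIF5A-KO, WT replicate 1 by little and WT replicate 2 by much. The means were 107 ± 67.1 and 44.6 ± 5.83 CPM (SD, n = 3 each), and WT libraries varied by 62.7% of their mean against 13.1% in the other group. The log2 fold change was -1.26 (SE 0.38), a ratio of 0.417 with a 95% confidence interval of 0.231 to 0.752, with an adjusted p of 0.495 in edgeR. Its size rested on WT replicate 2, without which it was -0.63, while without WT replicate 1 it was -1.56 with an adjusted p of 0.0475. Its unadjusted p was under 0.05 without each of the 6 libraries in turn, the highest being 0.0371.

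The level of Cdon followed the same order over the libraries as Myog, the transcription factor of terminal myogenic differentiation, and Chrna1, a subunit of the muscle acetylcholine receptor. In all of these genes WT replicate 2 was highest, followed by WT replicates 3 and 1 and then by replicates 1, 2 and 3 labelled eIF5A-KO. Pax7, Myod1, Des, Myf5, Cdh15 and Musk, the other myogenic markers, stood in other orders, and Des and Myf5 were highest in eIF5A-KO replicate 1. Musk was at 6.08, 11.4 and 6.08 CPM in WT and 7.53, 6.10 and 4.19 CPM in the libraries labelled eIF5A-KO. Myog was at 14.4, 76.3 and 32.2 CPM in WT and 8.93, 5.09 and 2.10 CPM in the libraries labelled eIF5A-KO. Its log2 fold change was -2.91 (adjusted p = 0.362 in edgeR). Pax7, the marker of satellite cells, was at 12.9, 51.7 and 25.2 CPM in WT and 12.97, 8.29 and 10.6 CPM in the other group, which overlap. Of the 8 myogenic markers, 7 had a log2 fold change below 0, 3 of them at an unadjusted p under 0.05, beside 51.7% and 4.02% of all tested genes, and the median was -0.51. Whether fewer myogenic cells or less Cdon RNA in each lies behind the level of Cdon was not tested.

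Set against the summed myogenic markers, Cdon overlapped between the groups. Most of that sum came from Myod1 and Des, at means of 417 and 312 CPM in WT and 273 and 308 CPM in the libraries labelled eIF5A-KO. Cdon was 9.30%, 12.9% and 8.05% of that sum in WT and 5.23%, 6.77% and 8.32% in the libraries labelled eIF5A-KO, of which the last lay above WT replicate 3. Of the 7 marker sums used as a denominator, that of fibro-adipogenic progenitors gave overlapping groups too, and with the other 5 all WT libraries lay above all those labelled eIF5A-KO. As a share of Myod1, the transcription factor of myoblasts, Cdon was 21.5%, 33.3% and 18.6% in WT and 14.3%, 16.7% and 19.6% in the other group, again with overlap. The groups overlapped relative to Pax7 too. Relative to Des, the intermediate filament gene of muscle, Cdon was 28.8%, 42.6% and 26.2% in WT and 11.4%, 15.4% and 20.3% in the libraries labelled eIF5A-KO, which do not overlap. Relative to Cdh15, a cadherin of myoblasts, Cdon was 330.6%, 294% and 204% in WT and 119%, 156% and 178% in the other group, which do not overlap either. Relative to Myog the order was the opposite, at 393%, 240.1% and 252% in WT and 559%, 894% and 1830% in the libraries labelled eIF5A-KO, higher without overlap. Relative to Chrna1 the groups overlapped. These single-gene denominators were chosen after their values were seen, and the outcome depended on which was used.

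**Figure D3:**
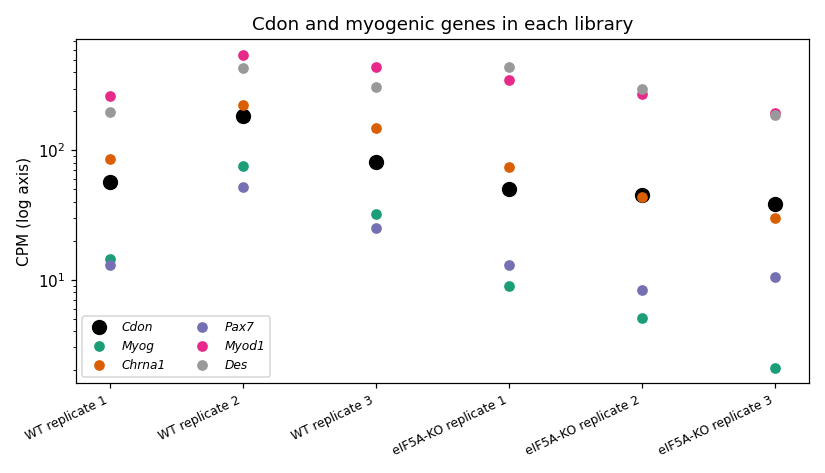
Level of Cdon and of myogenic marker genes in each of the 6 libraries, as CPM on a log axis. Cdon, Myog and Chrna1 stand in the same order of libraries, with WT replicate 2 highest and replicate 3 labelled eIF5A-KO lowest.

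Boc (ENSMUSG00000022687), the gene of the other co-receptor, is annotated on chromosome 16, 44485049 to 44558897, minus strand. Its level was 24.9, 35.2 and 25.8 CPM in WT and 29.2, 31.9 and 32.3 CPM in the libraries labelled eIF5A-KO. All 3 libraries labelled eIF5A-KO lay inside the WT range. The means were 28.6 ± 5.73 and 31.1 ± 1.65 CPM (SD, n = 3 each), with a log2 fold change of 0.12 (95% confidence interval -0.30 to 0.55; adjusted p = 0.955 in edgeR). The log2 fold change of Boc was 0.038 without WT replicate 1 and 0.30 without WT replicate 2. The mean of Boc was not lower, unlike that of Cdon, and the difference between these co-receptor genes was not tested.

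Ptch1 (ENSMUSG00000021466), which encodes the ligand-binding receptor and is itself a Hedgehog target, is annotated on chromosome 13, 63508328 to 63573598, minus strand. It was at 12.99, 35.4 and 18.1 CPM in WT and 15.8, 18.5 and 23.9 CPM in the libraries labelled eIF5A-KO. The WT libraries held both the lowest and the highest value. In edgeR a log2 fold change of -0.20 was found, with a 95% interval from -0.96 to 0.57 and an adjusted p of 0.964, and it was 0.32 without WT replicate 2 and -0.45 without WT replicate 1.

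Smo (ENSMUSG00000001761), the gene of the signal transducer under the control of PTCH1, is annotated on chromosome 6, 29735503 to 29761365, plus strand. Its level was 65.1, 91.1 and 86.0 CPM in WT and 74.2, 92.1 and 74.0 CPM in the libraries labelled eIF5A-KO. The groups overlapped, with WT replicate 1 below all 3 libraries labelled eIF5A-KO. In edgeR a log2 fold change of -0.01 was found, with a 95% interval from -0.44 to 0.41 and an adjusted p of 0.993, which leaves room for a change of up to the ends of that interval. Its sign changed with the setting, from -0.14 without WT replicate 1 to 0.085 without WT replicate 2.

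Hhip (ENSMUSG00000064325), which encodes the membrane protein that binds and sequesters Hedgehog ligands, is annotated on chromosome 8, 79965851 to 80058006, minus strand. It was counted 58, 24 and 29 times in WT and 83, 71 and 87 times in the libraries labelled eIF5A-KO. Its level was 3.75, 1.27 and 1.71 CPM in WT and 5.08, 4.20 and 4.93 CPM in the other group. All 3 libraries labelled eIF5A-KO lay above all 3 WT libraries, the gap to WT replicate 1 being small. The means were 2.24 ± 1.32 and 4.74 ± 0.468 CPM (SD, n = 3 each), a ratio of 2.11. The log2 fold change was 1.05 (SE 0.39), a ratio with a 95% confidence interval of 1.14 to 3.78, with an adjusted p of 0.611 in edgeR. It ran from 0.78 without WT replicate 2 to 1.60 without WT replicate 1, was 0.29 in limma on log2(FPKM + 1), a scale that understates changes of low genes, and its unadjusted p was under 0.05 without 2 of the 6 libraries in turn, WT replicate 1 and eIF5A-KO replicate 2.

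Of the markers of 6 other cell types, the sums of mural and Schwann cells were higher beside Hhip without overlap of the groups, and the sums of the other 4 overlapped. The summed mural cell markers were 371 to 629 CPM in WT and 723 to 785 CPM in the libraries labelled eIF5A-KO, and those of Schwann cells were 212 to 295 and 330 to 368 CPM. All 8 mural markers, all 8 endothelial markers and all 6 Schwann markers had a log2 fold change above 0, beside 48.3% of all tested genes, with medians of 0.52, 0.45 and 0.37. Myh11, the smooth muscle myosin of the mural list, was among the 3 genes past the adjusted threshold (log2 fold change 1.51, adjusted p = 0.0486 in edgeR). As a share of the summed mural markers, Hhip was 1.01%, 0.202% and 0.350% in WT and 0.660%, 0.582% and 0.629% in the libraries labelled eIF5A-KO, which overlap through WT replicate 1. Relative to the Schwann markers it was 1.77%, 0.433% and 0.580% against 1.39%, 1.27% and 1.34%, with overlap as well. Of the 7 marker sums used as a denominator, myogenic cells included, 6 gave overlapping groups. As a share of the summed markers of fibro-adipogenic progenitors, Hhip was 0.108%, 0.0552% and 0.0639% in WT and 0.201%, 0.140% and 0.190% in the other group, which alone did not overlap. The part of these cell types in the level of Hhip was not tested.

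Sufu (ENSMUSG00000025231), the gene of the cytoplasmic inhibitor of the GLI factors, is annotated on chromosome 19, 46396896 to 46488804, plus strand. Its level was 28.4, 47.6 and 36.9 CPM in WT and 34.8, 38.5 and 39.96 CPM in the libraries labelled eIF5A-KO. The means of 37.6 ± 9.62 and 37.7 ± 2.69 CPM (SD, n = 3 each) differed by far less than their spread, and the sign of the difference changed with the scaling. In edgeR a log2 fold change of 0.0029 was found, with a 95% interval from -0.47 to 0.47 and an adjusted p of 0.999.

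Gli3 (ENSMUSG00000021318), on chromosome 13, 15463235 to 15730026, plus strand, was the highest of the 3 GLI transcripts per length. It was at 13.2, 31.8 and 21.4 CPM in WT and 17.1, 19.0 and 20.8 CPM in the libraries labelled eIF5A-KO, the latter lying inside the WT range. In edgeR a log2 fold change of -0.22 was found, with a 95% interval from -0.87 to 0.42 and an adjusted p of 0.947. It was -0.47 without WT replicate 1 and 0.13 without WT replicate 2.

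Gli2 (ENSMUSG00000048402), on chromosome 1, 118834132 to 119053619, minus strand, encodes the main activator of the pathway. It was counted 44, 126 and 100 times in WT and 76, 101 and 87 times in the libraries labelled eIF5A-KO, or 2.84, 6.68 and 5.91 against 4.65, 5.98 and 4.93 CPM. The groups overlapped, the sign of the difference changed with the scaling, and in edgeR a log2 fold change of 0.0077 was found, with a 95% interval from -0.73 to 0.75 and an adjusted p of 0.997.

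Gli1 (ENSMUSG00000025407), on chromosome 10, 127329882 to 127341974, minus strand, is the GLI gene that the pathway itself induces. It was counted 20, 46 and 36 times in WT and 29, 23 and 26 times in the libraries labelled eIF5A-KO. A count of 20 has an exact 95% Poisson interval of 12.2 to 30.9 and a count of 46 one of 33.7 to 61.4, which cover counting error only. Its level was 1.29, 2.44 and 2.13 CPM in WT and 1.77, 1.36 and 1.47 CPM in the other group, and the groups overlapped through WT replicate 1. In edgeR a log2 fold change of -0.33 was found, with a 95% interval from -1.08 to 0.42 and an adjusted p of 0.926. It was -0.53 without WT replicate 1 and -0.15 without WT replicate 2. Gli1 overlaps Arhgap9 on the opposite strand and the antisense transcript Gm47200, and whether reads were counted by strand is not given in the sources used here, so that part of these reads may belong to those genes.

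The spread of WT over the 3 replicates was shared by most of the genes. WT replicate 2 was the highest of the 6 libraries for 7 of the 9 genes, all except Smo and Hhip, and the lowest for Hhip. WT replicate 1 was the lowest for 7 of the 9, all except Cdon and Hhip. In those libraries the level went with gene length over all genes: the 6269 genes of 4451 to 14185 bases, the range of the 9, had a median centred log2 CPM of -0.092 in WT replicate 1 and 0.15 in WT replicate 2, and the 2720 genes under 2000 bases had 0.25 and -0.25. With this length trend taken out, an alternative added after the data were seen, the log2 fold change of Cdon was -1.16 (adjusted p = 0.315 in edgeR) and that of Hhip 1.03 (adjusted p = 0.577 in edgeR). Leaving out WT replicate 1 gave the lowest log2 fold change of each of the 9 genes except Hhip, and leaving out WT replicate 2 gave the highest of those 8, the reverse holding for Hhip.

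**Figure D4:**
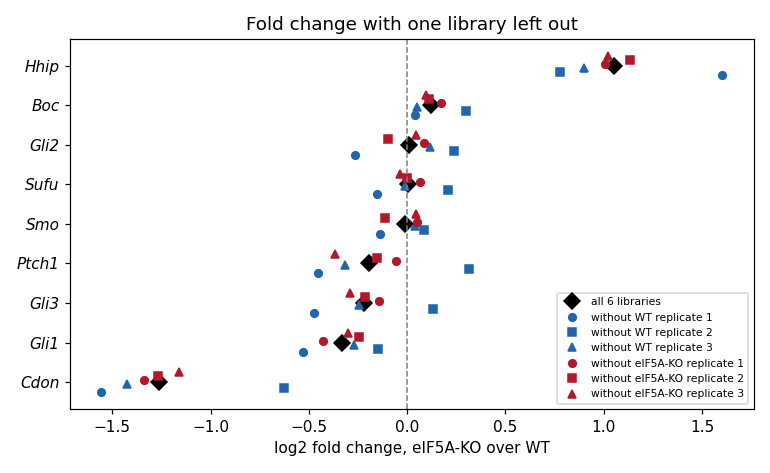
Log2 fold change of each of the 9 genes with all libraries and with each of the 6 libraries left out in turn. Cdon stayed below 0 (-1.56 to -0.63) and Hhip above 0 (0.78 to 1.60) throughout, while Smo, Sufu, Gli2, Gli3 and Ptch1 had both signs.

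The genes whose pattern over the 6 libraries was most like that of a Hedgehog gene were sought among 13609 candidates by the root-mean-square difference of centred log2 CPM. For Cdon they were Sync at 0.087, Myh1 at 0.13 and Rbm20 at 0.15, of which Sync encodes an intermediate filament protein of muscle, Myh1 a fast myosin heavy chain and Rbm20 a splicing factor of striated muscle. For Ptch1 they were Med12 at 0.039, Arhgef12 at 0.059 and Birc6 at 0.073. For Boc they were Gtf2ird1 at 0.026, 4930402H24Rik at 0.033 and Arnt2 at 0.039. For Gli1 they were Dqx1 at 0.047, Caskin1 at 0.062 and Bhlhe22 at 0.062, where counts are so low that counting error enters the likeness. Ptch1, Boc, Cdon and Gli1 thus had no common nearest gene.

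The rest of the pathway was read from lists of its genes, in none of which a gene passed the adjusted threshold of edgeR. Of 8 genes for Hedgehog ligands and their release, 6 were tested, with a median log2 fold change of 0.28. Of these, 3 were above and 3 below 0, beside 48.3% and 51.7% of all tested genes. In 2 of the 6 all libraries labelled eIF5A-KO were higher without overlap, beside 5.68% of all tested genes. Scube3, which encodes a secreted protein of a family that helps to release the ligand, was at 2.13, 1.70 and 1.18 CPM in WT and 4.41, 3.14 and 2.66 CPM in the libraries labelled eIF5A-KO. These groups do not overlap, and the log2 fold change was 0.98 (adjusted p = 0.557 in edgeR). Disp1, which encodes the transporter that releases ligand from the cell, had the highest level of the list at a mean of 3.61 FPKM, with a log2 fold change of -0.05. The ligand genes themselves had low counts. Shh was counted 17, 36 and 25 times in WT and 14, 12 and 29 times in the libraries labelled eIF5A-KO, and Dhh 24, 44 and 45 against 60, 43 and 70 times. Ihh was counted at most 9 times in a library and was not tested.

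Of 4 other receptors and co-receptors, 3 were tested, and none had an unadjusted p under 0.05, beside 6.76% of all tested genes. Gas1, which encodes a further co-receptor and had the highest level of the list at a mean of 15.1 FPKM, was at 20.6, 69.3 and 56.0 CPM in WT and 53.7, 44.2 and 26.1 CPM in the libraries labelled eIF5A-KO. Its log2 fold change was -0.24 (adjusted p = 0.964 in edgeR), and the libraries labelled eIF5A-KO lay inside the wider WT range. Of 24 cytoplasmic and ciliary transducers, 8 were above and 16 below 0, beside 48.3% and 51.7% of all tested genes. The median of the 24 was -0.05, and none had an unadjusted p under 0.05, beside 6.76% of all tested genes. In 2 of the 24 the groups did not overlap, beside 12.5% of all tested genes. Prkar1a, a regulatory subunit of protein kinase A, which phosphorylates GLI factors, stood highest at a mean of 119 FPKM, with a log2 fold change of -0.06.

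Of 10 other genes reported as Hedgehog targets, 9 were above and 1 below 0, with a median log2 fold change of 0.12, and 3 had an unadjusted p under 0.05, all higher, beside 48.3% of all tested genes above 0 and 2.74% higher at that p. Foxf2, a forkhead transcription factor of mesenchyme, was at 2.65, 2.44 and 3.37 CPM in WT and 6.18, 7.05 and 4.59 CPM in the libraries labelled eIF5A-KO. Its log2 fold change was 1.04 (adjusted p = 0.398 in edgeR), without overlap of the groups. Foxc2, another forkhead factor, was at 6.79, 8.17 and 9.57 CPM in WT and 16.1, 13.5 and 14.1 CPM in the other group, with a log2 fold change of 0.82 and an adjusted p of 0.398 in edgeR. Cntfr, the receptor subunit for ciliary neurotrophic factor, was at 7.43, 6.89 and 6.26 CPM in WT and 10.4, 11.2 and 8.16 CPM in the other group, with a log2 fold change of 0.52 and an adjusted p of 0.697 in edgeR. Ccnd1, which encodes cyclin D1 and had the highest level of the list at a mean of 72.7 FPKM, had a log2 fold change of -0.39. The higher levels of Foxf2, Foxc2 and Cntfr stood beside those of the mural and Schwann cell markers given above, whose part was not tested. Of 15 partners of CDON and BOC in myoblasts, 14 were tested, 5 above and 9 below 0, beside 48.3% and 51.7% of all tested genes. The median of the 14 was -0.09, and none had an unadjusted p under 0.05, beside 6.76% of all tested genes. Myod1, the highest of them at a mean of 184 FPKM, was at 264, 550.0 and 437 CPM in WT and 349, 272 and 196 CPM in the libraries labelled eIF5A-KO, with a log2 fold change of -0.61 and an adjusted p of 0.794 in edgeR.

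**Figure D5:**
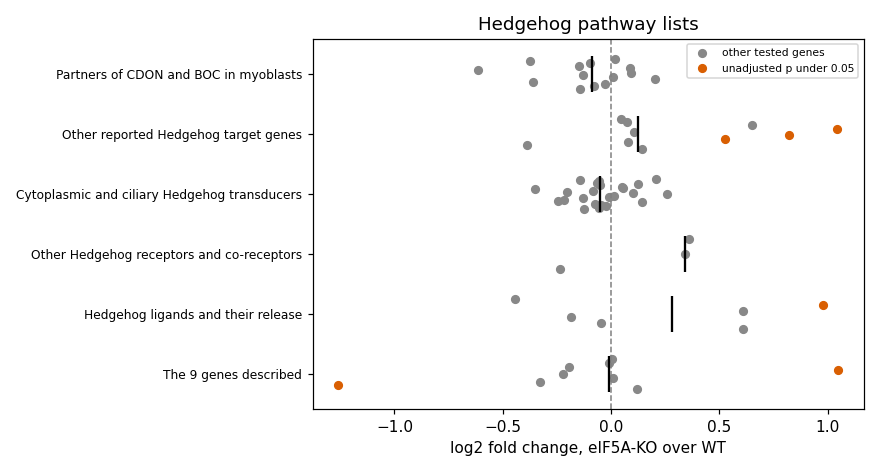
Log2 fold change of each tested gene of the 9 and of the 5 pathway lists between libraries labelled eIF5A-KO and WT, with a black bar at each median and genes with an unadjusted p under 0.05 in orange. The orange points are Cdon and Hhip among the 9 (median -0.011), Scube3 among the ligands and their release, and Foxf2, Foxc2 and Cntfr among the other targets.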

How the data were processed

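Bulk RNA-seq was measured in 3 WT and 3 eIF5A-KO libraries. Per the labels and methods, the authors extracted RNA with TRIzol, made libraries with an NEBNext Ultra kit, mapped reads to mm10 with HISAT and deposited raw counts per gene. They also deposited FPKM, whose denominators equalled median-of-ratios size factors times the geometric mean of the totals. The HISAT version, annotation release and strand setting are not given in the sources used here. The count tables were tested with edgeR 4.0.16 in R 4.3.3: filterByExpr, TMM factors, the two-sided quasi-likelihood F test (prior count 2) and adjustment by Benjamini-Hochberg over 14679 genes (threshold 0.05). Gene coordinates equalled those of GENCODE M21 (GRCm38). The fit was tested on simulated data. Alternatives were other scaling factors and filters, DESeq2 1.42.0, limma 3.58.1 on counts (voom) and on log2 FPKM, a replicate block, each library left out, and a length trend taken out. Genes named were the 9, Eif5a, the pathway-list genes with an unadjusted p under 0.05 or the highest mean FPKM of their list, and the 3 genes most alike in pattern to Gli1, Ptch1, Boc and Cdon; ligand and marker genes were named after their values were seen. The 9 genes and the lists were chosen with earlier results of these data known.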

Additional observations from a re-analysis of the deposited data

How the results depend on the processing

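The signs of Cdon, Boc, Gli1 and Hhip held in all 18 alternatives. All genes past the adjusted threshold numbered 3, and 0 with DESeq2 size factors, library size alone, at least 10 counts in every library, limma-voom, and limma on FPKM with a pseudocount of 1 or 0.1, with 992, 966, 907, 961, 980 and 980 at an unadjusted p under 0.05. They numbered 249 with no filter, 92 with DESeq2 and 8 with the length trend taken out. Leaving out libraries in turn gave 0 to 56 (56 without WT replicate 1, which made the 9 genes hold 1 call, Cdon; 0 without each of the others, with 585 to 1318 at an unadjusted p under 0.05). With no filter, 1 of the 9 genes passed, Cdon (adjusted p = 9.5e-06 in edgeR). Over the libraries left out, the 9 held 0 to 1 genes past the adjusted threshold, 1 to 3 at an unadjusted p under 0.05 (Gli3 joining without WT replicate 1) and 2 to 7 lower genes, and the pathway lists held 2 to 9 at an unadjusted p under 0.05. Signs turned for Sufu (-0.0023 with upper-quartile factors, -0.042 with library size alone; -0.15 to 0.21 over libraries left out), Gli2 (-0.048 with library size alone; -0.27 to 0.24), Smo (0.0018 with no filter, 0.0026 and 0.0033 with limma on FPKM, 0.012 with the length trend taken out; -0.14 to 0.085), Gli3 (-0.47 to 0.13) and Ptch1 (-0.45 to 0.32); the cause was not tested. Under the replicate block 24 genes passed, none of the 9. In deviations from group means, same-numbered libraries correlated at 0.094, -0.196 and 0.109. WT replicate 1 correlated best with eIF5A-KO replicate 2. With 3 libraries in each group, these values cannot settle whether the numbers pair the samples. Low counts of Gli1, Gli2 and Hhip limit their precision.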
